A study of Mus musculus with 5 samples.

Results

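Arginine is shared between enzymes that use it for different ends, and 8 genes of this branch of metabolism were followed on mouse arrays of endothelial cells from liver and liver tumors. They are ornithine decarboxylase Odc1, the nitric oxide synthases Nos2 and Nos3, the arginine-making enzymes Ass1 and Asl, the arginine carriers Slc7a1 and Slc7a2, and Ddah2. The genes were chosen on these same arrays with the tumor samples set against normal endothelium, and every probe that carried the name of a member was kept. This gave 10 probes for 8 genes, among 56605 probes and 37074 gene names in all. Because tumor against normal endothelium was the contrast that chose them, those differences are given as a description and no test was made on them.

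The study looked for genes and microRNAs particular to tumor endothelium in hepatocellular carcinoma. Each of 5 conditions had 1 array, with liver sinusoidal endothelial cells (LSEC) of normal liver, tumor endothelial cells (TEC) of tumors grown from 3 hepatoma lines, and 1 of these lines, Hepa1-6, in culture. Hepa1-6 comes from mouse, whereas the lines HAK-1B and KYN-2 are human and were grown as xenografts in the mouse liver, and cross-hybridization of human RNA to the mouse probes was not tested. LSECs and TECs were the cells that bound magnetic beads against CD31, the product of Pecam1, and the labels name no treatment. As strain the labels give C57BL/6 for LSEC and for each TEC and C57L for the cultured line, while the methods name 6-week-old female animals, either C57BL/6 or nude (BALB/c nu/nu), without tying them to arrays. In the paragraphs on arrays the methods name Huh-7 where the labels name HAK-1B, and the label is used here. The labels do not say whether animals were pooled.

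With 1 array per condition no value has a replicate error. The SD given with a mean is the spread over tumors of the 3 lines, and it is not an error between animals. Repeated spots of a probe within an array had a median coefficient of variation of 2.62% to 3.08%, an error of spotting and scanning alone. The TEC arrays shared a slide that held neither LSEC nor the cultured cells, which were on 1 further slide each, so that slide and group cannot be told apart. All 3 TEC differences are taken to the same LSEC array, so an odd value on that array enters each of them. The Hepa1-6 TEC array stood apart, with 78.1% of probes well above background, where the LSEC array had 54.1%, the xenograft TECs 57.6% (HAK-1B) and 54.7% (KYN-2), and the cultured cells 44.6%.

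As background, ornithine can be made from arginine, and ornithine decarboxylase turns ornithine into putrescine, the first polyamine. Nitric oxide synthases use the same arginine to make nitric oxide and citrulline, and argininosuccinate synthase and lyase rebuild arginine from citrulline. Nos2 is best known as the inducible synthase of stimulated macrophages and hepatocytes, and Nos3 as the synthase of endothelium.

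A probe of Odc1 is shown because this gene was read by a pair of probes that put the arrays in the same order, and the one shown is the dimmer. It has 60 bases, written 5′ to 3′ as on the array.
Odc1: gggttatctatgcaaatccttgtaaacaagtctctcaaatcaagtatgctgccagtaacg
On the mm9 build of the mouse genome this probe lies at chr12:17554799-17554858 on the plus strand, over 60 bases of genome without a gap, and its GC content is 40%. Probes of paralogs in the family are unlike, with the best alignment without gaps matching 22 of 55 bases between Nos2 and Nos3 and 21 of 60 between Slc7a1 and Slc7a2. The remaining genes are read on chromosome 11 for Nos2, 2 for Ass1, 17 for Ddah2, 8 for Slc7a2, and 5 for Nos3, Asl and Slc7a1.

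Values below are log2 of the spot signal after quantile normalization over the 5 arrays, and a difference of 1 is a 2-fold change. Levels of members are compared between arrays for the same probe and not between probes. Where 3 TEC values follow each other without a name, they stand in the order HAK-1B, Hepa1-6, KYN-2. Of the 50 probe values 49 were well above background by the flag of the scanner software, and the exception was Slc7a2 in LSEC. Genes were kept where their probe was present, that is flagged as positive, well above background, uniform, not saturated and no outlier, on at least 1 array of each comparison, and all 8 members were among the 21202 that passed. These flags are those of the methods, but lincRNA probes, which the methods leave out, were kept.

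Odc1, the enzyme that takes ornithine into polyamines, was read by 2 probes. By the brighter one it had a level of 11.56 in LSEC, 11.90 in HAK-1B TEC, 13.23 in Hepa1-6 TEC, 13.61 in KYN-2 TEC and 13.66 in cultured Hepa1-6 cells. By the other, the levels were 8.27, 8.86, 9.46, 10.49 and 11.16 in the same order. Both probes put the arrays in 1 order, with LSEC lowest and cultured Hepa1-6 cells highest, and gave mean TEC differences of 1.36 ± 0.90 and 1.33 ± 0.82 (SD over 3 TECs). HAK-1B TEC was the TEC array closest to LSEC for Odc1, with log2 differences of 0.34 and 0.59 by the brighter and the dimmer probe.

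**Figure D1:**
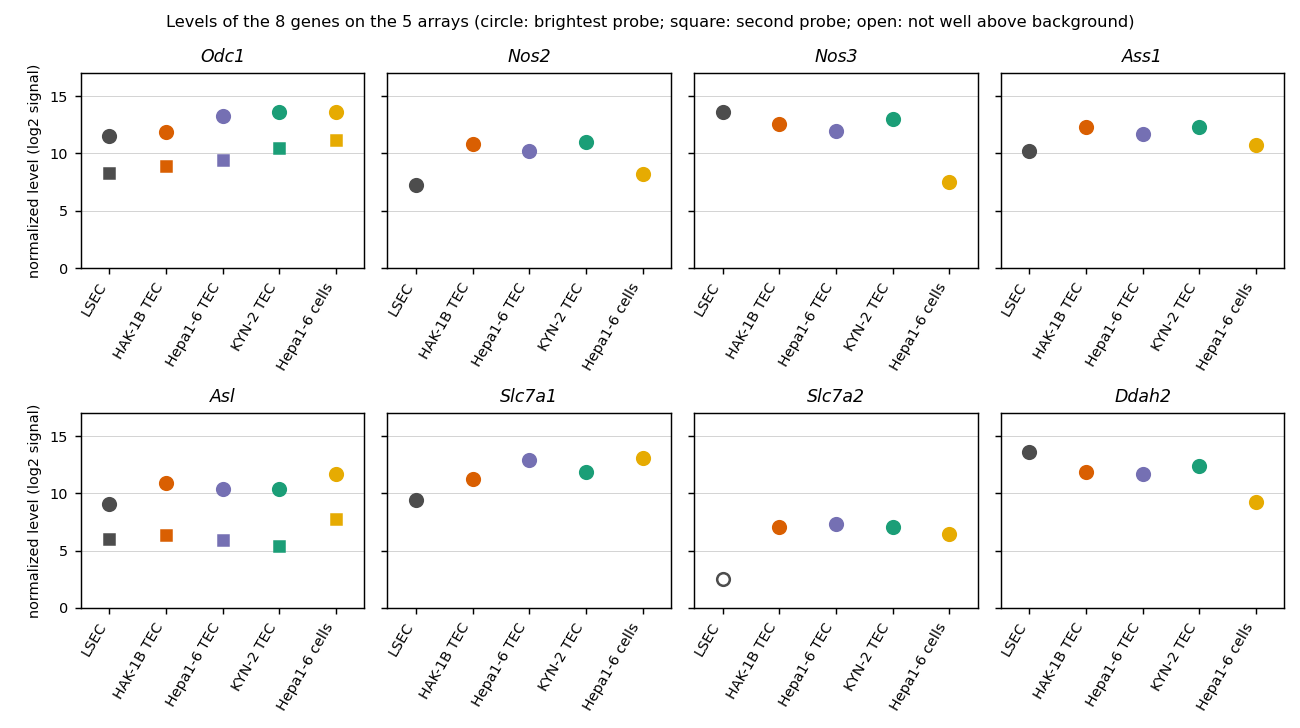
Normalized level (log2 signal) of the 8 genes on the 5 arrays, 1 panel per gene; circles are the brightest probe of a gene, squares its second probe, and open symbols are not well above background. Nos2 lies near 7.25 in LSEC and between 10.20 and 10.98 in the 3 TECs, while Nos3 and Ddah2 are highest in LSEC.

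The nitric oxide synthases differed from LSEC in opposite directions. Nos2 had a level of 7.25 in LSEC, 10.80 in HAK-1B TEC, 10.20 in Hepa1-6 TEC, 10.98 in KYN-2 TEC and 8.16 in cultured Hepa1-6 cells. All 3 TEC arrays were above both other arrays, by 11.8-fold, 7.77-fold and 13.3-fold over LSEC, with a mean difference of 3.41 ± 0.41 (SD over 3 TECs). Nos3 had a level of 13.64 in LSEC, 12.54 in HAK-1B TEC, 11.93 in Hepa1-6 TEC, 12.98 in KYN-2 TEC and 7.55 in cultured Hepa1-6 cells. LSEC was the highest array and the TECs were 2.14-fold, 3.28-fold and 1.58-fold lower, a mean difference of -1.16 ± 0.53 (SD over 3 TECs). Nos3 was nevertheless 20.9-fold higher in Hepa1-6 TEC than in the cultured cells of that line, where its signal was lowest. In RNA from a mixed sample, fewer cells of a type and less RNA per cell cannot be told apart.

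Ass1 and Asl, which rebuild arginine from the citrulline that nitric oxide synthases release, were both higher in TECs by the brighter probe. Ass1 had a level of 10.21 in LSEC, 12.27 in HAK-1B TEC, 11.71 in Hepa1-6 TEC, 12.27 in KYN-2 TEC and 10.76 in cultured Hepa1-6 cells. The 3 TECs were 4.15-fold, 2.83-fold and 4.16-fold above LSEC and also above the cancer cells, with a mean difference of 1.87 ± 0.32 (SD over 3 TECs). The array design lists a further transcript beside Ass1 for this probe, so the level may include it.

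Asl had a level of 9.06 in LSEC, 10.92 in HAK-1B TEC, 10.35 in Hepa1-6 TEC, 10.37 in KYN-2 TEC and 11.65 in cultured Hepa1-6 cells by a probe that spans an exon junction of the RefSeq transcript. By this probe the TECs were 3.65-fold, 2.45-fold and 2.48-fold above LSEC, and the cancer cells were above all of them. A second Asl probe, designed on an Ensembl transcript, had levels of 6.01, 6.40, 5.94, 5.41 and 7.80 in the same order of arrays. Its mean TEC difference was -0.09 ± 0.50 (SD over 3 TECs), so the higher level of Asl in TECs rests on 1 of its 2 probes. Both probes were highest in Hepa1-6 cells.

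Slc7a1 and Slc7a2 carry arginine, lysine and ornithine into cells. Slc7a1, the widely expressed carrier, had a level of 9.40 in LSEC, 11.28 in HAK-1B TEC, 12.94 in Hepa1-6 TEC, 11.86 in KYN-2 TEC and 13.10 in cultured Hepa1-6 cells. LSEC was lowest, and the TECs were 3.69-fold, 11.6-fold and 5.50-fold above it, with a mean difference of 2.63 ± 0.84 (SD over 3 TECs). Hepa1-6 TEC, the highest TEC array, differed from the cultured cells of its line by -0.16 on the log2 scale, or by -0.69 with scaling to the 75th percentile. Slc7a2, the carrier of liver and of stimulated macrophages, had a level of 7.03 in HAK-1B TEC, 7.37 in Hepa1-6 TEC, 7.11 in KYN-2 TEC and 6.44 in cultured Hepa1-6 cells, and its reading of 2.56 in LSEC was not well above background. LSEC was again the lowest array, and the fold was at least 5.10, 6.46 and 5.40 in the TECs, at least 5.62 for their mean and at least 3.38 in the cancer cells. These bounds take, for the dim array, the lowest signal of any probe that was well above background there. Its mean TEC difference as read, 4.61, became 1.65 with normexp background correction.

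Ddah2 is named as a dimethylarginine dimethylaminohydrolase, a family known for breaking down methylated arginines that inhibit nitric oxide synthases, although the activity of Ddah2 itself is disputed. Its level was 13.58 in LSEC, 11.83 in HAK-1B TEC, 11.68 in Hepa1-6 TEC, 12.35 in KYN-2 TEC and 9.27 in cultured Hepa1-6 cells. The order of the arrays was the same as for Nos3. The TECs were 3.38-fold, 3.74-fold and 2.35-fold lower than LSEC, a mean difference of -1.63 ± 0.35 (SD over 3 TECs), and Hepa1-6 TEC was 5.32-fold above the cultured cells.

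**Figure D2:**
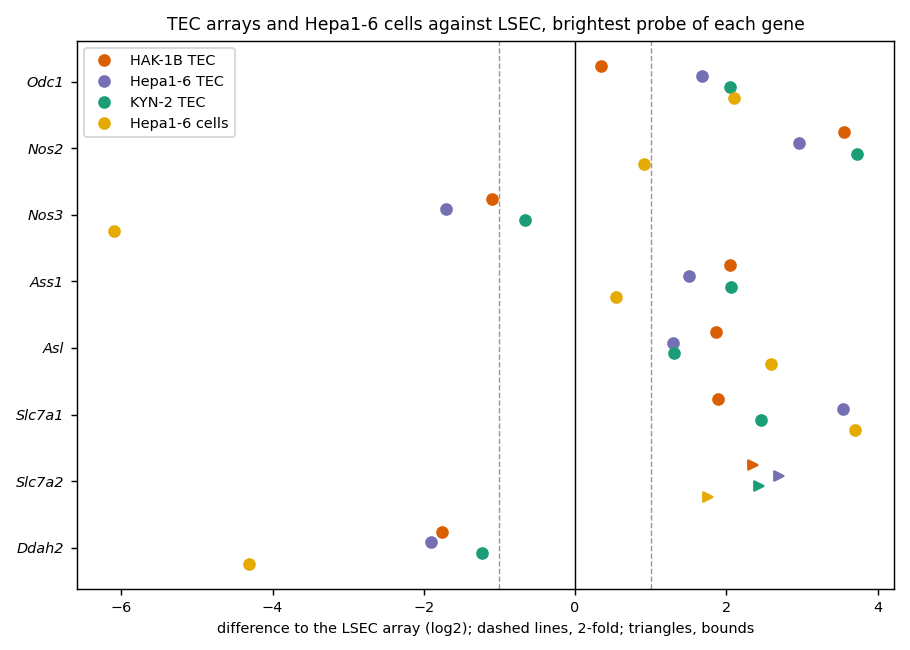
Difference to the LSEC array (log2) of the 3 TEC arrays and the cultured Hepa1-6 cells for the brightest probe of each gene; dashed lines mark 2-fold, and triangles are bounds where 1 side was not well above background. Nos3 and Ddah2 are below 0 on all 4 arrays, while Nos2 is further above LSEC in each TEC than in the cancer cells.

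Counted by gene on the brightest probe, 5 of 8 members were at least 2-fold higher in all 3 TECs, namely Nos2, Ass1, Asl, Slc7a1 and Slc7a2, where 6.05% of all genes were. Only Ddah2 was at least 2-fold lower in all 3, against 11.0% of all genes. With the arrays scaled to their 75th percentile it was at -0.98 in KYN-2 TEC and 0 members were, and without KYN-2 TEC Nos3 joined it, for a count of 2. Since this contrast chose the members, nothing is read from these counts. The rule of size in the methods, a Z-score past 2 or -2 together with a ratio past 1.5 or 0.66, was passed upward in all 3 TECs by Slc7a2 and by 0.580% of genes, and downward by 0 members and 1.01% of genes, both shares over the 19310 genes left without the probes for lincRNAs, which the methods leave out. To reach that Z-score a ratio to LSEC of 7.25, 11.4 and 6.79 was needed in the TECs. Slc7a2 passed it on its reading below background in LSEC, whereas its bounds are under those folds. Nos2 passed in both xenograft TECs but not, at 7.77-fold, in the TECs of Hepa1-6, so that 2 members passed upward without that array.

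In cultured Hepa1-6 cells 4 members were at least 2-fold above LSEC, namely Odc1, Asl, Slc7a1 and Slc7a2, where 27.8% of all genes were. Another 2 were at least 2-fold lower, namely Nos3 and Ddah2, beside 30.6% of all genes. When Hepa1-6 TEC was set against these cells, 3 members were at least 2-fold higher, Nos2, Nos3 and Ddah2, beside 25.7% of all genes. By the brightest probes only Asl was at least 2-fold lower there, at 2.46-fold, beside 23.5% of all genes. The probes of Odc1 differed in size here. The brighter one gave -0.43 on the log2 scale, or -0.99 with scaling to the 75th percentile, and by the dimmer one Hepa1-6 TEC was 3.24-fold lower. Both of these comparisons have 1 array on each side and carry no test. Each also shares an array, LSEC or Hepa1-6 TEC, with the contrast that chose the members, so nothing is read from these counts.

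Other genes of arginine, polyamine and nitric oxide metabolism were taken from 9 lists, of which 81 genes could be compared. Of these, 4 were at least 2-fold higher in all 3 TECs, or 4.94%, and 10 were at least 2-fold lower, or 12.3%. The same shares over all genes were 6.05% and 11.0%. The median difference was 0.12, against -0.11 over all genes tested.

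In the urea cycle list 3 of 5 genes could be compared, with a median of 0.27, which was -0.07, 1.49 and -0.63 without the arrays of HAK-1B, Hepa1-6 and KYN-2 and 0.53 with scaling to the 75th percentile. That median is the value of Cps1 and includes its reading below background in Hepa1-6 TEC. Slc25a13, the mitochondrial aspartate and glutamate carrier, was at 6.94 in LSEC and at 8.65, 9.74 and 8.63 in the TECs. Cps1, the mitochondrial entry enzyme of the cycle, was at 4.99 in LSEC and at 5.92 and 7.04 in HAK-1B and KYN-2 TEC, and was not well above background in Hepa1-6 TEC. Otc, which joins ornithine to carbamoyl phosphate, was at 6.44 in LSEC and dark, that is not well above background, in all 3 TECs. Neither Cps1 nor Otc was thus higher on all 3 TEC arrays.

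Of 14 polyamine genes 2 were at least 2-fold higher in all 3 TECs and 0 lower, with a median of 0.57. Smox, which oxidizes spermine, was at 10.44 in LSEC and at 13.46, 12.40 and 13.39 in the TECs. Azin2, which counters the inhibitors of ornithine decarboxylase, was not well above background in LSEC and was at 6.44, 5.92 and 5.72 in the same TECs. Oaz2, such an inhibitor, had a mean difference of -1.21 ± 0.44 (SD over 3 TECs).

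Of 6 genes that join ornithine to proline, 0 were past 2-fold in all 3 TECs in either direction, with a median of 0.30, or 0.12 without Hepa1-6 TEC. Prodh, which starts proline breakdown, had a mean difference of 0.99 ± 1.05 (SD over 3 TECs) and Aldh4a1, which ends it, one of -1.15 ± 0.29. Aldh18a1, which starts proline synthesis from glutamate, was at 0.58 ± 0.47. Of 6 other carriers, with a median of -0.33, or -0.10 with scaling to the 75th percentile, Slc7a6 was higher in all 3 TECs, by 5.73-fold, 8.17-fold and 3.02-fold. The mitochondrial carrier Slc25a29 and Slc38a9, an arginine sensor of the lysosome, were lower in all 3, with mean differences of -1.71 ± 0.20 and -1.89 ± 0.38 (SD over 3 TECs).

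Of 9 genes that make or remove methylarginines 0 were past 2-fold in all 3 TECs, and the median was 0.36. The methyltransferases Prmt1 and Prmt7 had mean differences of 1.06 ± 0.70 and 0.89 ± 0.67 (SD over 3 TECs), and Agxt2, which clears methylarginines, had -1.04 ± 1.71. The 5 creatine genes, with a median of -0.35, or -0.08 without KYN-2 TEC, also had 0 past 2-fold in all 3. Slc6a8, the creatine carrier, was at 1.74 ± 1.05, Ckmt1, a mitochondrial creatine kinase, at -0.95 ± 0.63, and Gatm, which makes the creatine precursor from arginine, at -1.04 ± 0.93.

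The 14 cofactor and partner genes of nitric oxide synthases had a median of -0.43, or 0.01 with scaling to the 75th percentile, with 3 at least 2-fold lower in all 3 TECs and 0 higher. Gchfr, which restrains the first enzyme of tetrahydrobiopterin synthesis, was at 13.08 in LSEC and at 10.23, 10.57 and 10.92 in the TECs. Nostrin, which moves Nos3 away from the membrane, was 3.61-fold, 3.04-fold and 2.20-fold lower in that order. Nos1, the neuronal synthase, was not well above background on any array.

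Downstream of nitric oxide, 3 of 7 genes of the cyclic GMP pathway were at least 2-fold lower in all 3 TECs and 0 higher, with a median of -1.81, the lowest of the 9 lists, or -1.27 with normexp background correction. Pde2a, a phosphodiesterase that cyclic GMP stimulates, was at 17.18 in LSEC and at 14.79, 14.98 and 15.20 in the TECs. Prkg1, the kinase that cyclic GMP activates, was at 7.49 in LSEC and at 4.93, 5.14 and 6.14 in the TECs. Gucy1b3, the subunit of guanylate cyclase that binds nitric oxide through heme, was 6.20-fold, 6.41-fold and 1.91-fold lower. These values stood beside endothelial and LSEC marker lists that were also lower in TECs, as given below, and the part of that in the result was not tested.

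The 17 regulators known to act on genes of the family such as Nos2 or Nos3 had a median of -0.01, whose sign changed with the scaling, with 0 at least 2-fold higher and 1 lower in all 3 TECs. That gene was Epas1, a hypoxia-inducible factor abundant in endothelium, with a mean difference of -2.87 ± 0.52 (SD over 3 TECs). Klf2, a factor that responds to flow and drives Nos3, was at -1.58 ± 0.70, and Irf1, a factor of the interferon response that drives Nos2, at -1.40 ± 0.45.

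**Figure D3:**
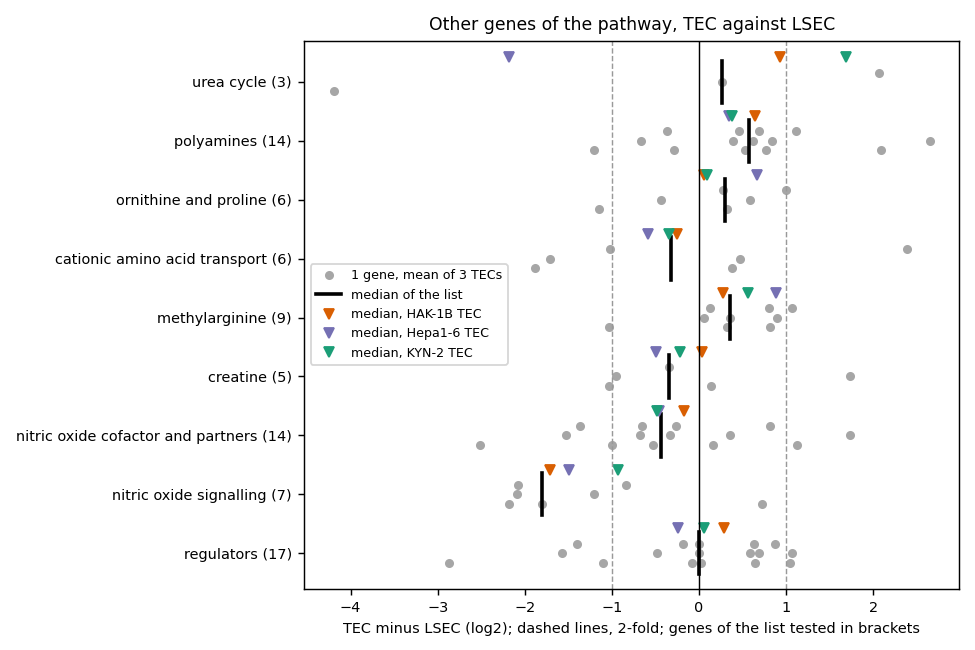
TEC minus LSEC difference (log2) of the other genes of the pathway by list; grey points are genes (mean of 3 TECs), black bars the medians of the lists and triangles the medians on each TEC array. The cyclic GMP list has the lowest median, at -1.81, and the urea cycle list is on opposite sides of 0 in Hepa1-6 TEC and in the xenograft TECs.

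Markers of cell types were set beside the members because TECs were taken from whole tumors by beads. On the LSEC array and the 3 TEC arrays all 14 endothelial genes and all 12 LSEC genes were well above background, which for endothelial genes is what the labels call for. Their levels were lower in TECs, with a median difference of -2.37 for the endothelial list, in which 10 of 14 genes were at least 2-fold lower in all 3, and of -2.74 for the LSEC list, in which 11 of 12 were. The brightest gene of a list is the one whose probe gave the largest part of its summed normalized signal on an array, which describes the sum and not how abundant the transcripts were. The sum of the endothelial list was 571354 in LSEC and 83323, 84086 and 171392 in the TECs, with Egfl7 the brightest gene on each. That of the LSEC list was 767651 against 100103, 89099 and 112487, with Clec4g the brightest in LSEC and in Hepa1-6 TEC and Stab1 in the xenograft TECs. The differences of -1.16 for Nos3 and -1.63 for Ddah2 lay within the range of the endothelial genes, from -3.85 to -0.68, of which 3, Vwf, Emcn and Pecam1, were closer to 0 than both members. In cultured Hepa1-6 cells, where Nos3 was lowest, 10 of the 14 endothelial genes were dark, Pecam1, Cdh5 and Kdr among them.

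The 19 macrophage and monocyte genes were all well above background on the LSEC array as well as on each TEC array. Their summed signal was 894310 in LSEC and 990317, 519727 and 715164 in the TECs, and Lyz2, the brightest on each TEC array, was at 17.45 in LSEC and at 18.28, 17.47 and 17.85 in the TECs, while Cd5l was the brightest in LSEC. The median difference of the list was 0.37, or 0.13 without HAK-1B TEC, with 3 genes at least 2-fold higher in all 3 TECs and 6 lower. Named after their values were seen, the higher genes were Ccr2, Spp1 and Trem2, at 3.50 ± 1.80, 5.29 ± 1.38 and 3.44 ± 1.56 (SD over 3 TECs). The lower genes were Itgam and a set typical of resident Kupffer cells, Clec4f, Vsig4, Timd4, Cd5l and Marco. Genes of this list were thus measured in LSEC as in TECs, with different genes higher in each, and the part of macrophage RNA in the level of Nos2 was not tested.

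Of 10 genes of macrophages stimulated through the interleukin 4 receptor 4 were at least 2-fold higher in all 3 TECs and 0 lower, with a median of 0.93, which was 0.60 without HAK-1B TEC or Hepa1-6 TEC and 1.56 without KYN-2 TEC. The list had 8 of 11 genes well above background in LSEC and 10 on each TEC array, and its summed signal was 76035 in LSEC and 53548, 192232 and 49865 in the TECs, so that the sum was above LSEC in Hepa1-6 TEC alone. Its brightest gene was Ccl24 in LSEC and KYN-2 TEC and Mgl2 in the other TECs, and the probe of Mgl2 was also at 16.27 in Hepa1-6 cells. Pdcd1lg2 and Ccl17 were not well above background in LSEC, and Ccl22 was not on any array. Pdcd1lg2 was at 7.10, 6.97 and 5.74 in the TECs and at 11.25 in Hepa1-6 cells. The neutrophil list had a median of 3.01, which was 1.97 without HAK-1B TEC, 4.2 without KYN-2 TEC and 2.34 with normexp background correction, with 6 of 13 genes at least 2-fold higher in all 3 TECs and 0 lower. In LSEC 10 of its 15 genes were well above background, and in the TECs 15, 15 and 13, with Ly6g, Cxcr2, Mmp9, Ltf and Ngp dark in LSEC and Ly6g and Ngp dark in KYN-2 TEC. Its summed signal was 94411 in LSEC and 227893, 90566 and 90969 in the TECs, and 94.7% of the sum in LSEC was Csf3r, whose probe was bright in cultured Hepa1-6 cells too. Csf3r was also the brightest in the TECs of Hepa1-6 and KYN-2, and S100a9 in those of HAK-1B. The medians of this list by TEC were 4.75, 3.31 and 1.15. The part of neutrophil RNA in the members' levels was not tested.

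Ass1 and Asl are also hepatocyte genes. The hepatocyte list had medians of -4.13, 0.64 and -2.97 in the TECs, and 10, 19 and 16 of 19 genes well above background there, beside 18 on the LSEC array. Of 18 genes compared, 1 was at least 2-fold higher in all 3 TECs and 4 lower, with a median over TECs of -1.89, or -0.78 without HAK-1B TEC, -3.00 without Hepa1-6 TEC and -1.07 with normexp background correction. Its summed signal was 50466 in LSEC and 11403, 85666 and 20194 in the TECs, with Serpina1a the brightest gene in LSEC, Alb in Hepa1-6 TEC and Hal in both xenograft TECs. Hal, the higher gene, which starts histidine breakdown, was 35.9-fold, 11.2-fold and 39.5-fold above LSEC in the TECs, and Alb, which encodes albumin, was at 12.97 in LSEC and at 6.51, 15.54 and 8.85 in the TECs. In HAK-1B TEC, where Ass1 was 4.15-fold and Asl 3.65-fold above LSEC, the hepatocyte markers Apoa1, Apob, Ttr, Fga, Hnf4a, Cyp3a11, Serpina3k and Tdo2 were among those not well above background. The part of hepatocyte RNA in the levels of Ass1 and Asl was not tested.

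The remaining lists cover lymphocytes, mesenchymal cells and blood cells. Of 10 genes of T and NK cells 2 were at least 2-fold higher in all 3 TECs and 0 lower, with a median of 0.38. These were the NK cell receptors Ncr1, at 6.52, 8.38 and 6.22 in the TECs, and Klrb1c, at 6.60, 6.38 and 5.78, both dark in LSEC. The summed signal was 4948 in LSEC and 4959, 34384 and 7377 in the TECs, with Cd4 the brightest gene in LSEC and HAK-1B TEC, Gzma in the other TECs, at 85.6% of the sum in Hepa1-6 TEC, and Cd8a and Tcra dark in LSEC and in both xenograft TECs. Of 6 B cell genes 0 were past 2-fold in all 3 TECs in either direction. Their median was -0.23, which was -0.45, 0.26 and -0.57 without the arrays of HAK-1B, Hepa1-6 and KYN-2 and -0.03 with scaling to the 75th percentile, with Cd79b the brightest gene and sums of 7693 against 10309, 3266 and 8332.

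Of 11 stellate cell and fibroblast genes 4 were at least 2-fold higher in all 3 TECs and 0 lower, with a median of 0.91, or 1.65 without HAK-1B TEC. They were the collagen genes Col1a1, Col1a2 and Col3a1 and the growth factor receptor Pdgfrb. Col1a1 was dark in LSEC and at 9.46, 10.87 and 11.53 in the TECs, and Col1a2 was 6.10-fold, 11.7-fold and 16.2-fold above LSEC. Col3a1 was 6.19-fold, 12.4-fold and 15.1-fold above it and Pdgfrb 2.68-fold, 5.53-fold and 6.73-fold. The list had Dcn as brightest gene in Hepa1-6 TEC and Acta2 in LSEC and the other TECs, sums of 13293 against 24334, 47751 and 36312, and also Des and Lrat dark in LSEC. Dcn was 56.6% of the sum in Hepa1-6 TEC, and its probe was also at 16.74 in cultured Hepa1-6 cells. Of 8 erythroid and platelet genes 0 were at least 2-fold higher in all 3 TECs and 2 lower, Slc4a1 and Ppbp. Their median was -2.40, which was -1.59 without HAK-1B TEC and -3.05 without KYN-2 TEC, with Hba-a1 the brightest gene in LSEC and KYN-2 TEC, Pf4 in the other TECs, and sums of 291788 against 44987, 98979 and 258494. The genes named here for passing 2-fold were chosen after their values were seen. The part of these cell types in the members' levels was not tested.

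**Figure D4:**
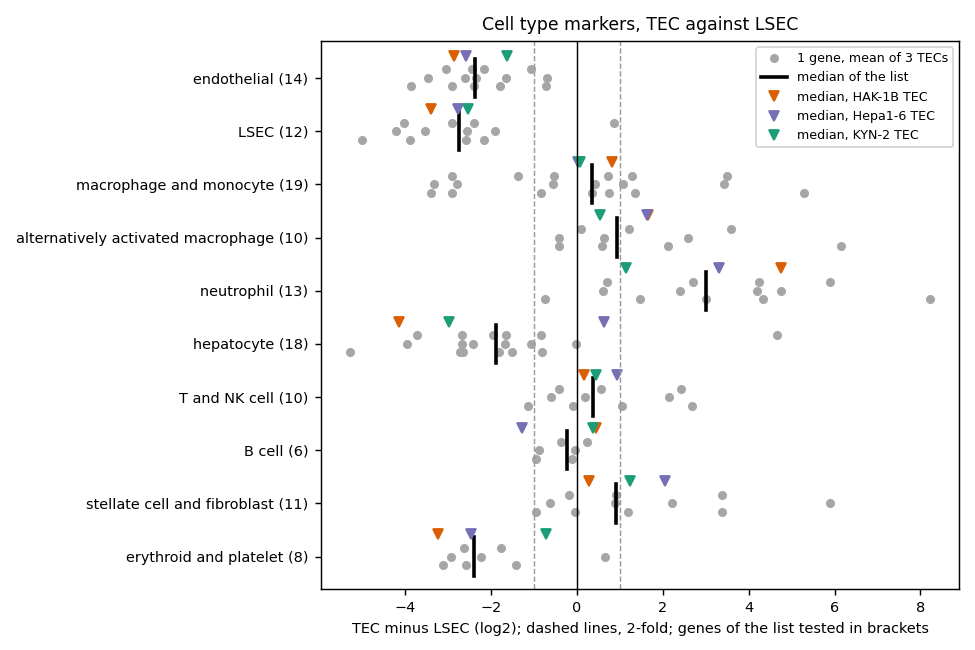
TEC minus LSEC difference (log2) of cell type markers by list; grey points are genes (mean of 3 TECs), black bars the medians of the lists and triangles the medians on each TEC array. Endothelial and LSEC markers have medians of -2.37 and -2.74, the neutrophil list 3.01, and the hepatocyte list differs in sign between Hepa1-6 TEC and the xenograft TECs.

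The genes whose profile over the 5 arrays lay nearest to that of Nos3 were found by the distance between log2 profiles, each centred on its own mean. Candidates were the 10267 genes with a RefSeq transcript and a probe well above background on all 5 arrays, cultured Hepa1-6 cells included. Genes dark in those cells, among them the endothelial markers Pecam1, Cdh5 and Kdr, could thus not be found. The nearest were Cd300lf at a distance of 0.28, Dusp1 at 0.48, Dpysl3 at 0.56, Exoc3l4 at 0.57 and Mertk at 0.60. Cd300lf, a receptor of myeloid cells, was at 13.20 in LSEC, 12.12, 11.51 and 12.87 in the TECs and 7.13 in Hepa1-6 cells. Over only 5 arrays a like profile is a description, and the genes named depend on the measure of likeness.

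**Figure D5:**
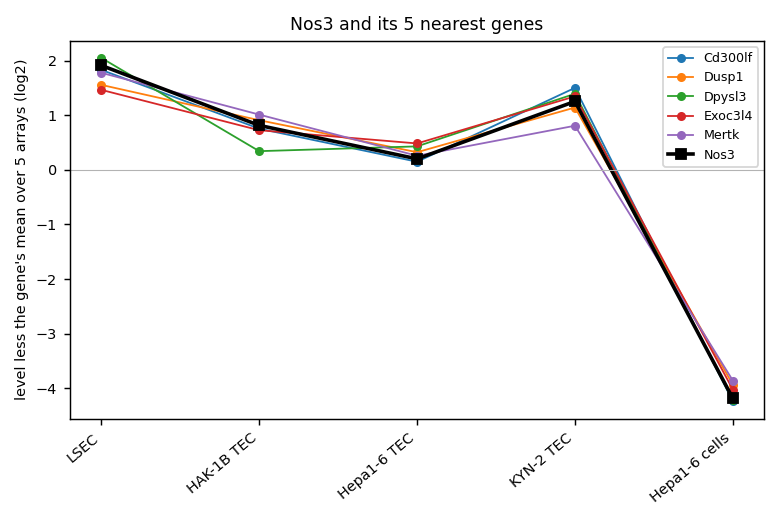
Level (log2) less the mean of the gene over the 5 arrays for Nos3, in black, and for the 5 genes nearest to it. Each profile is highest in LSEC and lowest in Hepa1-6 cells, and all values were well above background.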

How the data were processed

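RNA from 5 samples was amplified, labelled with Cy3 and hybridized to a 60-mer Agilent mouse array by the authors. They deposited linear intensity values, from which Feature Extraction had subtracted each array's background (9.5.1.1 in the submitters' processing notes, 10.7.1.1 in the file headers), and a table of intensity values normalized across arrays, in which all 5 columns have the same median intensity over probes (43.0), although the methods describe quantile normalization of sample pairs. The deposited flags of 0 or 1 for each spot, another unit without scale, mark spots well above background.

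Control spots were left out, spots of a probe averaged, log2 taken and arrays quantile normalized together. Each gene took its brightest probe. Differences to LSEC carry no test, since the members and lists were chosen with earlier results of these data known and each condition has 1 array. The named genes were all members, up to 3 genes of each pathway list with the largest mean difference among those above background in LSEC or all TECs, the brightest (by array) and dark genes of marker lists, and 5 nearest genes. Lists held 9 pathway groups and 10 cell types. Amd1 and Tf had no probe of that name. The counting was run on simulated arrays with changes of known, equal size, which checks the code and not the counts given here. Alternatives were scaling to the 75th percentile, normalization by pair, normexp with an offset of 50 (limma 3.58.1, R 4.3.3), the deposited table, other flag filters, the mean of probes, no Z-score and each TEC left out. Other steps used Python 3.11.15, numpy 2.4.6 and pandas 2.3.3. Files of other arrays of the study were not analysed here, and further genes of the family and a few genes of the lists are not reported here.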

Additional observations from a re-analysis of the deposited data

Results flagged for a closer look

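Some values had opposite signs in TECs of different tumor lines, and since each line had 1 array none of these differences was tested. The second Asl probe ranged over 1.00 on the log2 scale between TECs, from 0.40 in HAK-1B TEC to -0.60 in KYN-2 TEC. Cps1 ranged over 4.24 as read, up to 2.05 in KYN-2 TEC, but its reading in Hepa1-6 TEC was below background, so the size of this range was not measured. Agxt2 ranged over 3.27 and was above LSEC in Hepa1-6 TEC alone. Gatm ranged over 1.61 and was at 0.03 in HAK-1B TEC and at -1.57 and -1.58 in the other TECs. The median of the urea cycle list, which holds that reading, ranged over 3.88, that of creatine genes over 0.53, that of regulators over 0.53, that of hepatocyte markers over 4.77 and that of B cell markers over 1.72.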

How the results depend on the processing

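No paired analysis was possible because there was a single array per condition. A block for slide was not run, since LSEC, TECs and cultured cells lay on separate slides. The 8 members kept the sign of their mean TEC difference under all 7 alternatives that gave it. With a TEC left out this could not be otherwise, since all TEC differences of a member by its brightest probe had the same sign. Nos3 ranged from -1.40 without KYN-2 TEC to -0.88 without Hepa1-6 TEC. The count of members at least 2-fold lower in all TECs became 0 when arrays were scaled to the 75th percentile, where Ddah2 was at -0.98 in KYN-2 TEC or -0.96 relative to the median of all genes, and it was from 1 to 2 with each TEC left out, where Nos3 joined without KYN-2 TEC. That scaling raised the median of all genes by 0.10 over the TECs. Without the Z-score the rule of size gave 5 higher and 2 lower members, which follows from its construction, and it gave from 1 to 2 higher with each TEC left out, where Nos2 joined without Hepa1-6 TEC. The count of 5 higher members was 4 with the mean of all probes, where Asl dropped out, 4 when both arrays of each comparison had to be well above background, which removes Slc7a2, and 6 without HAK-1B TEC, where Odc1 joined. With normexp, Slc7a2 had a mean difference of 1.65 and Nos2 of 2.94. By Pearson r, 1 of the 5 genes nearest to Nos3 was found again. Precision is limited by the number of arrays, and levels not well above background have no order. The causes were not tested.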
